A study of Homo sapiens with 4 samples.

Results

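The RIG-I-like receptors are 3 cytoplasmic RNA helicases, encoded by RIGI (RIG-I), IFIH1 (MDA5) and DHX58 (LGP2). The platform annotation mapped 4 probes to them, 2 to RIGI and 1 each to IFIH1 and DHX58, among 21706 named gene probes and 24459 gene probes in all. Every probe was kept apart and read on all 4 arrays. The arrays were hybridized with RNA of HEK293 cells. HEK293 is an established line of human embryonic kidney origin, and here it carried a transgene for LGP2 or for a form of it named LGP2-4KR. The labels do not define 4KR, and the promoter of the transgenes and whether a line is 1 clone are not given in the sources used here. Each line was sampled without stimulation (0 h) and 12 h after transfection, with a Lipofectamine 2000 reagent (the labels spell it Lipofectaimin 2000), of 100 ng/ml short (low molecular weight) poly I:C, which is a man-made mimic of viral double-stranded RNA. Each of the 4 groups has 1 array, so no comparison between single arrays has a replicate or a test. No array of mock-transfected cells, or of cells left for 12 h without poly I:C, was analysed here, so an effect of poly I:C cannot be told apart from one of transfection or of time.

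RIG-I and MDA5 bind viral double-stranded RNA through a helicase and a C-terminal domain and signal through N-terminal CARD domains to the mitochondrial adaptor MAVS. MAVS then activates the kinases TBK1 and IKKε and the factors IRF3, IRF7 and NF-kB, which switch on interferon beta and lambda genes. RIG-I is known for short double-stranded RNA with 5′ phosphates, and MDA5 for long double-stranded RNA. LGP2 lacks the CARD domains and cannot signal by itself. It is known to assist MDA5 and to restrain RIG-I in many settings. All 3 genes are also interferon-stimulated genes in most cell types, so the sensors feed back on their own amounts.

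An array probe reports the brightness of 1 short stretch of the gene's RNA, so levels of different probes are not set against each other here. Between 83.2% and 89.2% of gene probes per array passed the detection limit, the mean of the 384 blank spots plus 2 SD. HEK293 markers were present, with all 11 probes of 6 measured genes detected on every array, while blood, endothelial and hepatocyte marker lists summed to at most 38.0 in deposited intensity on any array. Fibroblast markers summed to between 79.9 and 94.0 and the keratinocyte markers KRT5 and KRT14 to between 205 and 279 (HEK293 markers, 4465 to 6196). The receptor probes stood well above the blank spots throughout, and the dimmest reading lay 20.3 blank SDs over the blank mean. Ratios below are log2 values after background correction with an offset of 50 and quantile normalization, and the offset shrinks the ratios of dim probes. Intensities quoted come from the authors' series table, scaled to a median of 25 over the values it lists for each array.

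The control regions of RIGI and IFIH1 are shown because both genes rose together after stimulation. They are the 250 bases before an annotated start of each gene, from a set of RefSeq promoters on GRCh38.p14. The set used here held this window for 2 of the 3 genes. Where it gave several starts for a gene, the first listed was kept. The RIGI window is chr9:32526197-32526446 and the IFIH1 window chr2:162318685-162318934, both on the minus strand. Capitals mark matches, on either strand, to the core of the interferon-stimulated response element (GAAA, 2 bases of any kind, GAAA) or to a loose form of the NF-kB site (GGGA, 4 bases of any kind, CC).
RIGI: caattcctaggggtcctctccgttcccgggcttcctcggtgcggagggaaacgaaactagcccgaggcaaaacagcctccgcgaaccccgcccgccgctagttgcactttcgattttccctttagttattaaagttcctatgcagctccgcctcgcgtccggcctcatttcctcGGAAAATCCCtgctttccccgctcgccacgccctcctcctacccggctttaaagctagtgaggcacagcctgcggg
IFIH1: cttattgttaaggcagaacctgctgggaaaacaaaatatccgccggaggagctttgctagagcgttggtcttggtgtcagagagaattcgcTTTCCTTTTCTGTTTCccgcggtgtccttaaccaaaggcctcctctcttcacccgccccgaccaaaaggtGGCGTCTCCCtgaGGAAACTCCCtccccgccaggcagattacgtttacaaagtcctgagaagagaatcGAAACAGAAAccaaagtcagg

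The IFIH1 window held 3 matches to the response element core. One, GAAACAGAAA on the gene's strand, began 21 bases before the start, and the other two, TTTCTGTTTC and TTTCCTTTTC on the opposite strand, began 153 and 159 bases before it and overlap in the run of capitals. The RIGI window held 0 matches to that core and 1 match to the loose NF-kB site, GGAAAATCCC, which began 76 bases before the start. IFIH1 held 2 matches to the NF-kB form, GGAAACTCCC and GGCGTCTCCC, which began 76 and 89 bases before its start. The same search found the response element core in 3.07% and the NF-kB form in 22.1% of 27305 genes in the promoter set, with 1 window per gene. Among interferon-induced reference genes, 13 of 21 windows held the core and 5 of 21 (23.8%) the NF-kB form. Both windows held 0 matches to TTCNNNGAA, the STAT dimer site, and to TATAAA, the TATA box, which were in 6.78% and 11.1% of genes. The search for the core takes exactly 2 bases between the GAAA runs, so the stretch gaaacgaaa in the RIGI window was not counted. A match is a stretch of letters and no record of binding.

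RIGI encodes RIG-I, the receptor best known for short double-stranded RNA, and its 2 probes rose strongly in both lines. The first probe, H200013521, read 18.1 at 0 h and 639 at 12 h in LGP2 cells, and 20.3 and 615 in 4KR cells (intensity). The second probe, AHsV10002359, went from 13.7 to 1033 in LGP2 cells and from 13.1 to 734 in 4KR cells. Both stimulated arrays were thus far above both unstimulated arrays on either probe, and RIGI moved from near the middle of all gene probes (percentiles 45.7 to 53.6) to percentiles 95.7 to 97.4.

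As log2 ratios of 12 h over 0 h, the first RIGI probe gave 3.72 in LGP2 cells and 3.75 in 4KR cells, or 13.1-fold and 13.5-fold. The second gave 4.57 and 4.25, or 23.7-fold and 19.0-fold. In the deposited intensities, which carry no offset, the same ratios were 35.3-fold and 30.3-fold for the first probe and 75.2-fold and 56.1-fold for the second. In LGP2 cells the probes ranked 11 and 7 from the highest of 21853 probes, and in 4KR cells 11 and 8 of 21560. The 2 RIGI probes differed from each other by 0.85 in LGP2 cells and 0.50 in 4KR cells. Over 1943 genes with 2 probes the median gap in LGP2 cells was 0.10, but among the 14 of these pairs with a probe past 2-fold it was 0.90. The RIGI response thus differed more between its probes than between the lines.

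IFIH1 encodes MDA5, the receptor best known for long double-stranded RNA, and its probe had smaller ratios than either RIGI probe. Its intensity went from 18.9 to 256.5 in LGP2 cells and from 19.4 to 226 in 4KR cells. Again both stimulated arrays lay above both unstimulated ones, with the lines side by side at each time. The log2 response was 2.43 with LGP2 and 2.37 with 4KR, or 5.38-fold and 5.16-fold, and 13.6-fold and 11.7-fold in deposited intensities. It ranked 20 from the highest in LGP2 cells and 22 in 4KR cells.

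Of the 4 receptor probes, 3 were thus at least 2-fold higher in both lines. Among all probes detected in the comparison, 0.407% reached 2-fold higher with LGP2, 0.38% in 4KR cells and 0.322% in both. Of the receptor probes 0 were 2-fold lower, against 0.0137% of all probes in LGP2 and 0.0186% in 4KR cells. The lines can stand in for replicates of the stimulation in an additive limma fit with a term for line, in which any true difference between the lines' responses counts as error. In that fit the 2 RIGI probes rose by 3.73 ± 0.03 and 4.41 ± 0.09 (SE, 4 arrays), with Benjamini-Hochberg adjusted p of 0.00156 and 0.00766. IFIH1 rose by 2.40 ± 0.04 with an adjusted p of 0.00382 in the same limma fit. The fit called 13.8% of 22048 probes in either direction, so the call alone does not single the receptors out. The 95% interval of IFIH1, 2.29 to 2.50, lay below those of the RIGI probes, 3.64 to 3.83 and 4.13 to 4.69. The intervals of the 2 RIGI probes did not overlap each other either, although both read the same gene. Such an interval covers the scatter of a probe over the arrays and not the gap between probes of a gene, so it does not order the genes. RIGI and IFIH1 stayed higher in both lines under every processing tried, and passed the limma fit under each, with log2 ratios from 3.62 to 6.23 for RIGI and from 2.29 to 3.77 for IFIH1.

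**Figure D1:**
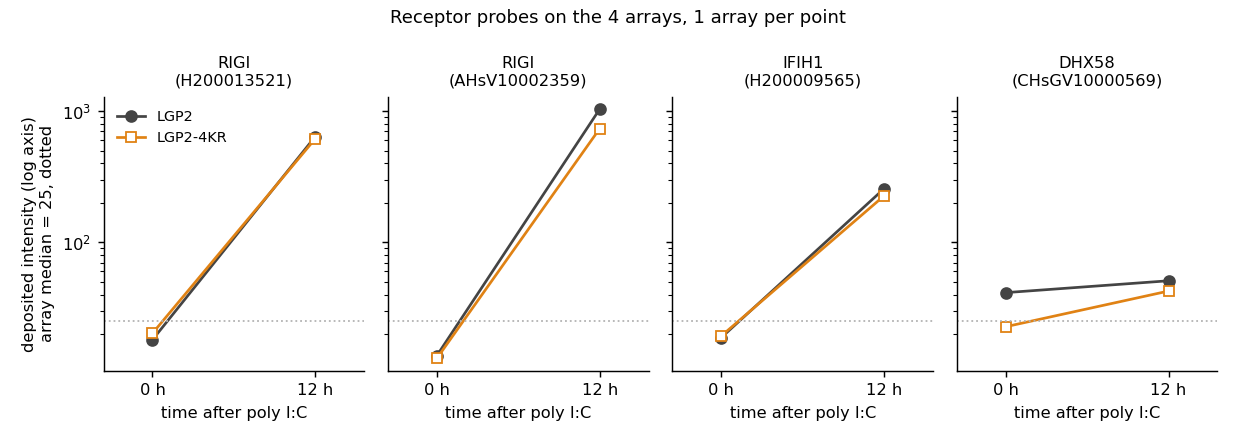
Deposited intensity (log axis, array median of 25 dotted) of the 4 receptor probes at 0 h and 12 h, with filled circles for LGP2 cells and open squares for LGP2-4KR cells, 1 array per point. Both RIGI probes and IFIH1 climb from under that dotted line to over 200 in both lines, while DHX58 stays between 22.8 and 51.0.

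**Figure D2:**
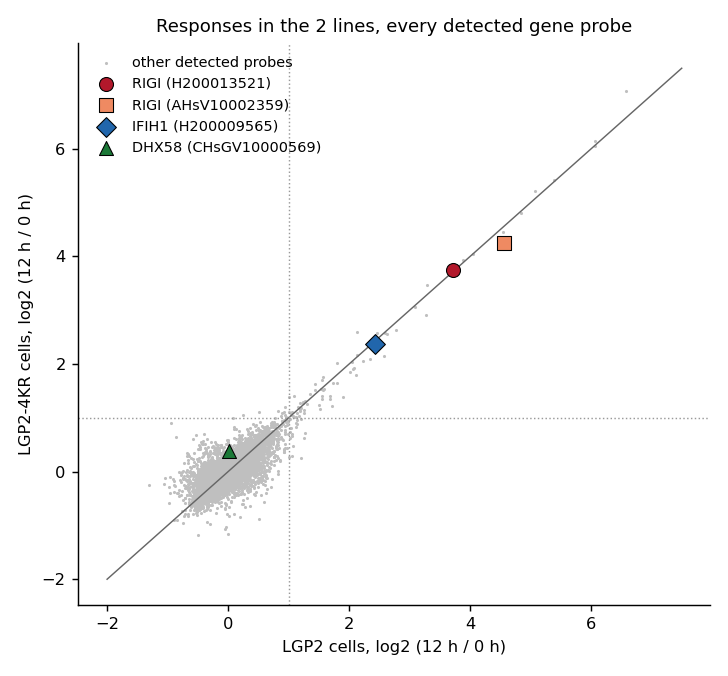
Each grey point is a detected gene probe, placed by its log2 ratio of 12 h over 0 h in LGP2 cells (x axis) and LGP2-4KR cells (y axis), with the line of equal response and dotted lines at 2-fold. The RIGI and IFIH1 probes lie near the line of equal response among the largest ratios, and DHX58, at 0.01 and 0.39, lies within the mass of probes.

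DHX58 encodes LGP2, the protein of the transgene, and its probe behaved differently from those of its relatives. Its intensity was 41.4 at 0 h and 51.0 at 12 h in LGP2 cells, and 22.8 and 42.6 in 4KR cells. The 4KR array at 0 h was the low one, and the highest value at 0 h lay just under the lowest at 12 h. The normalized log2 response was 0.01 with LGP2 and 0.39 with 4KR. In the limma fit over both lines the change was 0.20 ± 0.11 with an adjusted p of 0.339 and a 95% interval from -0.13 to 0.53. That interval does not reach 2-fold, but it holds for the scale with the offset, which shrinks the ratios of dim probes. In the deposited intensities, which carry no offset, the coefficient was 0.60, and no interval is given for it here. A bound on the DHX58 change free of the offset was therefore not tested. Without normalization between arrays the coefficient was 0.53 with a limma adjusted p of 5.74e-05, a setting in which the median probe lay at 0.11 in LGP2 cells and 0.25 in 4KR cells. With scaling to the 75th percentile the response in LGP2 cells was -0.03, where the median probe lay at -0.21. In deposited intensities the ratios were 1.23-fold and 1.87-fold, or log2 values of 0.30 and 0.90. The median probe there lay at 0.24 in LGP2 cells and 0.14 in 4KR cells.

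For comparison with genes of the same class, 26 of 27 detected probes of interferon-induced reference genes had a larger ratio than DHX58 in LGP2 cells and 24 of 27 in 4KR cells. Of those 27, 5 exceeded the first RIGI probe and 8 exceeded IFIH1 in each line. What the DHX58 probe reads is uncertain. The platform annotation ties it to a predicted non-coding transcript (RefSeq prefix XR), while those of RIGI and IFIH1 are tied to mRNAs. The RefSeq gene table used here lists 5 transcripts of DHX58, and 0 of them carry that identifier. Whether the probe matches the transgene was not tested, so its level checks neither the labels nor the amount of transgene RNA.

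Between the lines, DHX58 was the receptor with the largest ratio at 0 h, at -0.48 for 4KR over LGP2 cells, or 1.40-fold lower in 4KR cells. At 12 h the ratio was -0.10, and the 4KR response was 0.38 above that of LGP2 cells (the difference of responses). Among 5548 probes within 0.5 log2 units of its mean level, the middle 95% of the 0 h ratios ran from -0.27 to 0.18, so DHX58 lay outside it. For the difference of responses the middle 95% ran from -0.29 to 0.33, and DHX58 lay outside that range too. The probe sits in block 24 of the 24 blocks of the array, however, and that block had the lowest median of all at 0 h. Probes of block 24 detected on all 4 arrays had a median of -0.19 at 0 h and a middle 95% from -0.75 to 0.03, and 128 of 836 of them were lower than DHX58. Its 0 h ratio thus lay within the spread of its own block, and 74.0% of these probes had a lower difference of responses. Taken against the block's median in each comparison, the DHX58 ratio was -0.29 at 0 h and the difference of responses 0.18. A correction of every array by block medians over all gene probes, detected or not, gave -0.37 and 0.26 (the block correction used for the genes that follow). With plain subtraction of the blank level they were -0.88 and 0.72. The part of position on the array in the DHX58 ratios was not tested further.

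**Figure D3:**
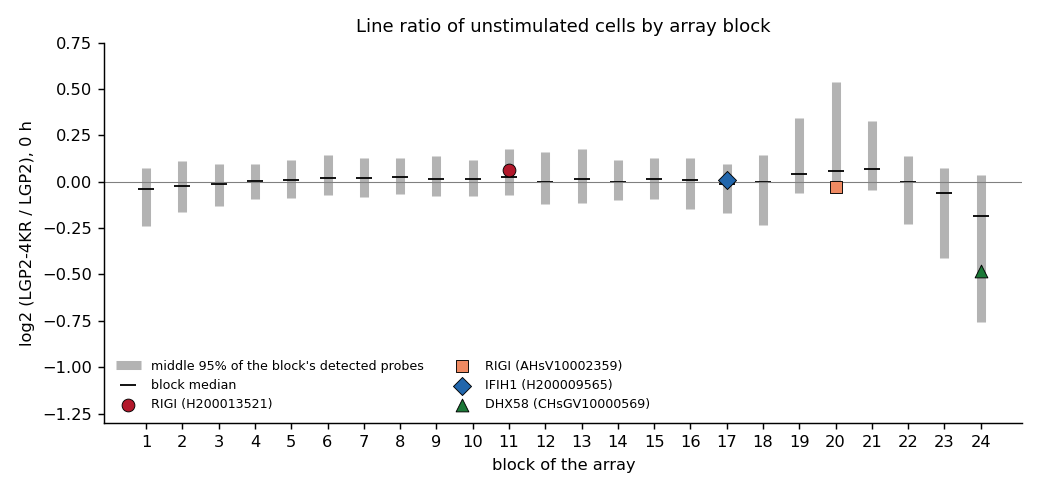
Log2 ratio of LGP2-4KR over LGP2 cells at 0 h by block of the array, with grey bars for the middle 95% of each block's probes detected on all 4 arrays, black dashes for block medians and coloured points for the 4 receptor probes. Blocks 1 to 18 centre near 0, block 24 lies lowest, and DHX58 at -0.48 falls inside the bar of block 24.

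RIGI and IFIH1 differed little between the lines. At 0 h the ratios of 4KR over LGP2 cells were 0.06 and -0.03 for the RIGI probes and 0.01 for IFIH1. At 12 h they were 0.10 and -0.35 for the RIGI probes and -0.05 for IFIH1. The 2 RIGI probes thus pointed in opposite directions at both times, and their gap at 12 h, 0.45, was wider than that of 98.8% of gene pairs of probes. The second RIGI probe sits in block 20, where the responses of the lines differed, and its 12 h ratio was -0.32 after block correction. At 12 h the 863 probes of that block detected on all 4 arrays had a median of -0.03, and 1.27% of them were lower than this probe. Among 2240 probes of like level the middle 95% ran from -0.27 to 0.25 at 12 h, so the second RIGI probe lay just outside. The difference of the responses was 0.04 for the first RIGI probe, -0.32 for the second and -0.06 for IFIH1. Over the settings it ran from -0.22 to 0.19 for the first RIGI probe and from -0.42 to -0.16 for the second. For IFIH1 it ran from -0.22 to 0.11, with the highest value without normalization between arrays, where the median probe lay at 0.12. Less the median probe, IFIH1 stayed negative (-0.12 to -0.01). The first RIGI probe then still changed sign (-0.11 to 0.07).

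Of the 4 receptor probes, 0 differed by 2-fold between the lines at either time, against 0.0454% of all probes. At 0 h, 0.0145% of probes were 2-fold higher and 0.0145% lower in 4KR cells, and at 12 h 0.0182% higher and 0.00454% lower. For the difference of the responses the shares were 0.0348% higher and 0.0298% lower, and again 0 receptor probes were past 2-fold. With the times as stand-ins for replicates, the limma fit gave line coefficients of 0.08 ± 0.03 and -0.19 ± 0.09 for RIGI, -0.02 ± 0.04 for IFIH1 and -0.29 ± 0.11 for DHX58. The adjusted p in that limma fit was 0.879 for the RIGI and DHX58 probes and 0.953 for IFIH1. It called 0 of 22048 probes, while 1016 (4.61%) had an unadjusted p under 0.05. The 95% intervals ran from -0.02 to 0.18 and from -0.47 to 0.09 for RIGI, from -0.13 to 0.08 for IFIH1 and from -0.62 to 0.04 for DHX58. The lines were therefore not shown to differ in any receptor. Each interval lay within 2-fold either way, but on the scale with the offset, which shrinks the ratios of dim probes. The fit takes both times together, so its intervals do not bound a difference at 0 h alone. Over the settings the DHX58 line coefficient ran from -0.56 to -0.21, and its 0 h ratio from -0.88 to -0.37. The sign of the line ratio at 12 h changed with the scaling for the first RIGI probe, IFIH1 and DHX58. The first RIGI probe was at -0.05 in the deposited table, where the median probe lay at -0.10. Without normalization between arrays IFIH1 was at 0.11 and DHX58 at 0.03, where the median probe lay at 0.10. Less the median probe, over the settings, the first RIGI probe stayed positive (0.05 to 0.13) and DHX58 negative (-0.17 to -0.07). IFIH1 then ran from -0.08 to 0.0005. At 0 h the second RIGI probe reached 0.0025 with scaling to the 75th percentile, where the median probe lay at 0.03. IFIH1 was at -0.0048 there without normalization, with the median probe at -0.01.

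**Figure D4:**
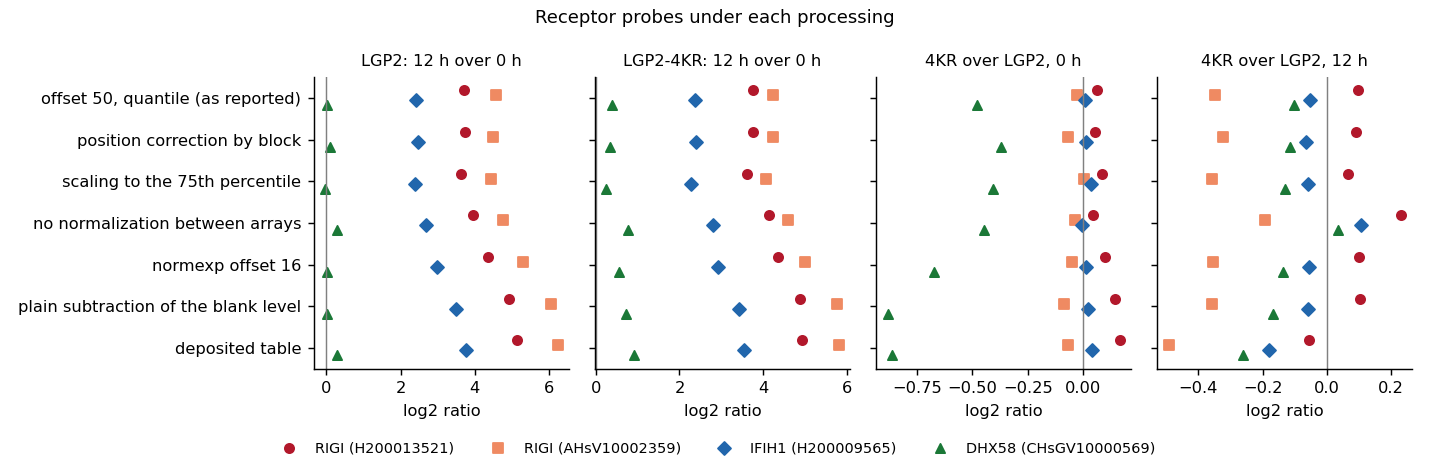
Log2 ratios of the 4 receptor probes in 4 comparisons (panels) under 7 ways of processing (rows), with a vertical line at 0. The responses of RIGI and IFIH1 grow as less offset is used and stay far above 0, while the ratios between lines stay within 1 log2 unit and several change sign.

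The genes whose pattern over the 4 arrays was most like each receptor were named by the smallest distance between log2 values centred on each probe's mean, out of at least 19592 named probes detected on at least 1 array. For the first RIGI probe these were CCL5, a T cell chemokine, at 0.18, IFNB1, which encodes interferon beta, at 0.31, CXCL8 at 0.37, TNFAIP3 at 0.66 and IFI44L at 0.71. For the second they were OASL, an interferon-induced protein that binds RIG-I, at 0.20, IFNB1 at 0.47, ISG15 at 0.54, CCL5 at 0.58 and CXCL10 at 0.81. OASL was not above background on either unstimulated array, so its responses, and with them its distance, depend on the background treatment. With plain subtraction its responses were 10.23 in LGP2 and 10.14 in 4KR cells. Those of the second RIGI probe were then 6.04 and 5.77. Likeness under other settings was not tested. The 2 RIGI probes were 0.75 apart. For IFIH1 they were CXCL11, an interferon-induced chemokine, at 0.07, the immediate early factor EGR1 at 0.18, ATF3 at 0.19, IFITM1 at 0.19 and CXCL2 at 0.19. The nearest patterns to DHX58 were of another kind, namely FASTKD3, DLX2, RPL36, EDC3 and KEAP1, all within 0.07. Of these 5 probes, 3 lie in block 24, like that of DHX58, and 2 in block 23.

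Around the receptors, most pathway genes stayed under 2-fold, and those past it in both lines, with the offset of 50, were DDX60, ZNFX1, OASL, TNFAIP3, IRF7, IFNB1 and IFNL3. Among 15 detected probes of related helicases and partners of the receptors, 2 were at least 2-fold higher in both lines, with list medians of 0.10 in LGP2 and 0.13 in 4KR cells against -0.01 in both for all probes. DDX60, an interferon-induced helicase, had ratios of 1.24 and 1.29, with intensities of 11.1 and 9.20 at 0 h and 74.4 and 67.3 at 12 h in LGP2 and 4KR cells. ZNFX1, a double-stranded RNA helicase, had 1.08 and 1.40 on 1 probe, but its other probe had -0.12 in both lines. DDX21 had 0.58 and 0.57. DICER1, TARBP2 and PRKRA, named after their values were seen, are the microRNA-processing enzyme and its double-stranded RNA-binding partners, and had ratios between -0.02 and 0.10.

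Among 21 probes of genes that activate RIG-I or MDA5, OASL was the 1 past 2-fold. It was not above background at 0 h, had intensities of 692 and 573 at 12 h, and was at least 22.7-fold higher in LGP2 and 21.2-fold higher in 4KR cells. ZC3HAV1, whose short form stimulates RIG-I, had 0.57 and 0.68, and EIF2AK2, the kinase PKR, 0.73 and 0.85. PPP1CC, a phosphatase that activates both sensors, had a 0 h line ratio of -1.02 on a probe in block 24 (-0.91 after block correction), but of -0.09 on its other probe, in block 2. Among 28 probes of inhibitors, TNFAIP3, the NF-kB inhibitor A20, was the 1 past 2-fold, at 3.08 and 3.07. CSNK2A1, a kinase that inactivates RIG-I, had 0.86 and 0.19 on a probe in block 20, with a 0 h line ratio of 0.71 (0.67 after block correction). ADAR, the RNA-editing enzyme, had 0.85 and 0.45. The medians of these lists were 0.08 and 0.05 for activators and 0.06 and 0.02 for inhibitors in LGP2 and 4KR cells.

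Downstream, 1 of 22 probes of MAVS signalling genes was past 2-fold, IRF7, the interferon-induced regulator of interferon genes, at 1.80 and 2.02, and the list medians were 0.05 and 0.06. NFKB1 had 0.98 and 0.44, with a probe in block 20. TBK1 had 0.58 and 0.38 on 1 probe, and -0.01 and -0.12 on the other. MAVS and IRF3, also named after their values were seen, are the adaptor and the factor that start interferon beta transcription, and had ratios between -0.06 and -0.08. Of 7 interferon gene probes, 2 were past 2-fold in both lines. IFNB1 had 4.04 in both, with intensities of 7.82 and 9.60 at 0 h and 613 and 580 at 12 h. IFNL3 had 1.21 and 1.18, and IFNL1 0.93 and 0.96. IFNL3 and IFNL1 were not above background in unstimulated LGP2 cells and were at least 2.27-fold and 1.89-fold higher there at 12 h. Which of these genes passed 2-fold turned on the processing: with an offset of 16 IFNL1 had 1.70 and 1.74, with scaling to the 75th percentile IFNL3 had 1.01 and 0.93, and without normalization between arrays NFKB1 had 1.33 and 1.01.

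The limma fit over both lines called 5 of the 15 helicase and partner probes higher and 1 lower. It called 4 of 21 activator probes higher and 2 lower, 4 of 28 inhibitor probes higher and 2 lower, 4 of 22 MAVS signalling probes higher and 0 lower, and 3 of 7 interferon probes higher. Over all probes it called 7.01% higher and 6.79% lower. Of the 27 interferon-induced reference probes, 25 were called higher, and 17 were past 2-fold in both lines, with medians of 1.55 and 1.53. IFIT1, which binds viral RNA, had the largest ratios at 6.58 and 7.08, ISG15, a ubiquitin-like modifier, had 4.84 and 4.82, and USP18, which removes ISG15, 1.58 and 1.76. Stable reference genes had medians of -0.24 and -0.20, with 0 of 13 probes past 2-fold, and the fit called 2 of the 13 lower and 0 higher.

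**Figure D5:**
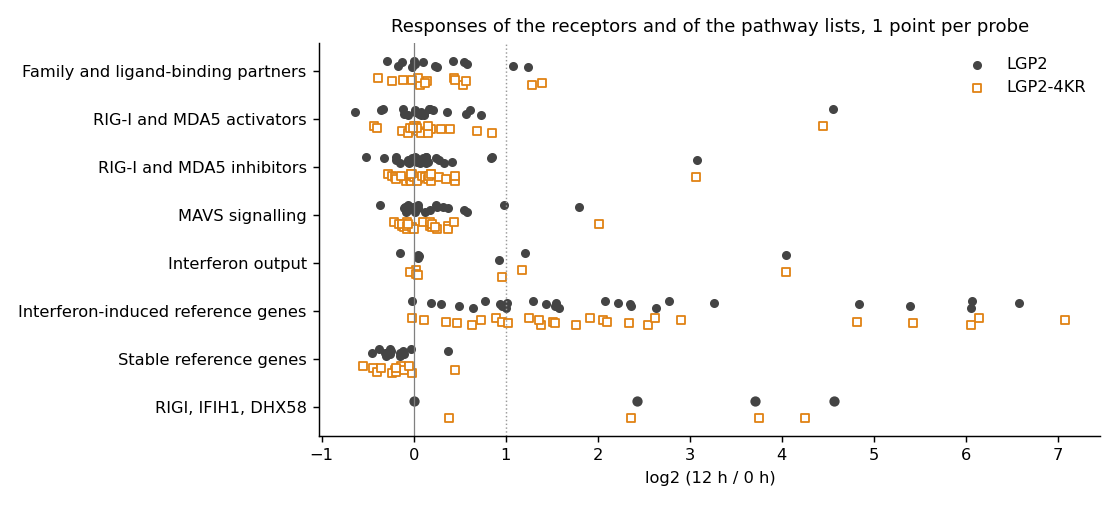
Log2 ratio of 12 h over 0 h for every detected probe of 7 gene lists and of the receptors (rows), with filled circles for LGP2 cells, open squares for LGP2-4KR cells and a dotted line at 2-fold. RIGI and IFIH1 lie among the larger ratios of the interferon-induced reference genes, DHX58 at 0.01 and 0.39, and most signalling genes under 2-fold.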

How the data were processed

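Per the labels' protocols, RNA was amplified to amino allyl aRNA and coupled to Cy5. Per the file headers, each scanner file holds the median intensity of 27456 spots at 635 nm, on a linear scale and not normalized. The deposited series table also holds intensities. Compared with the scanner files it matched each spot's signal less roughly the blank mean, rescaled so that the array median is 25, with residuals of at most 0.053. Background was corrected by normexp in limma 3.58.1 (R 4.3.3), with each array's mean blank spot as background and an offset of 50, followed by quantile normalization and log2. One probe that the scanner rejected on 1 array was left out. A ratio counted as past 2-fold where the brighter array passed the blank mean plus 2 SD (all 4 arrays for the difference of responses). A probe seen on the brighter array alone has a lower bound, taken against the dimmer array's detection floor or the probe's own reading there, whichever was higher. The additive limma fit had 1 residual degree of freedom, and its script was tested on simulated data. The rule for named genes took the receptors, list members past 2-fold, the 3 largest mean responses of each list and the 5 genes most like each receptor; marker, reference and stable genes it took are given mostly as counts and medians, and genes named outside it are marked. Members and lists were chosen with earlier results of these data known. The number of arrays limits the precision. Alternatives were an offset of 16, plain subtraction, 2 other scalings, the deposited table, a block correction and other detection limits.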

Additional observations from a re-analysis of the deposited data

How the results depend on the processing

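Values of the receptors' ratios that changed sign stand beside their results. The DHX58 response ran over the settings from -0.03 to 0.30 in LGP2 and from 0.25 to 0.90 in 4KR cells. IFIH1's line coefficient in the limma fit over both times, -0.02, became 0.0502 without normalization between arrays, with an adjusted p of 1 there. Counts of probes past 2-fold moved more. In the order response in LGP2 cells, response in 4KR cells, difference of the responses, 4KR over LGP2 at 0 h and at 12 h, they were 92, 86, 13, 6 and 5 as reported. They were 169, 139, 39, 24 and 12 with an offset of 16, and 1026, 754, 333, 255 and 351 with plain subtraction. In the deposited table they were 1353, 729, 366, 146 and 224. Without normalization between arrays they were 218, 510, 37, 9 and 9. The limma fit called 3043 probes for stimulation as reported, 39 after plain subtraction, 8811 with arrays left unnormalized and 15310 with scaling to the 75th percentile. For line it called 0 as reported, 15 with arrays left unnormalized and 177 with percentile scaling. Splits into higher and lower moved too. For stimulation in the fit they were 1545 and 1498 as reported, 39 and 0 with plain subtraction, 8786 and 25 without normalization, 1973 and 13337 with percentile scaling and 2070 and 28 in the deposited table. For the difference of responses they were 7 and 6 as reported, 206 and 127 with plain subtraction, 36 and 1 without normalization, 12 and 5 with percentile scaling and 104 and 262 in the deposited table. At 0 h they were 3 and 3 as reported, 0 and 9 without normalization and 1 and 3 with percentile scaling, and at 12 h 4 and 1 as reported, 3 and 2 with percentile scaling and 59 and 165 in the deposited table. Plain subtraction gave 120 and 135 at 0 h and 207 and 144 at 12 h, and the deposited table differs in both background and scaling. Of the probes past 2-fold per pathway list, counts ran over the settings from 2 to 3 for helicases and partners, 1 to 3 for activators, 1 to 6 for inhibitors, 1 to 3 for MAVS signalling and 1 to 4 for interferon genes, taking both lines. The cause was not tested. The number of arrays and, for probes near the detection limit, the signal over background limit these values.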
